A study of Caenorhabditis elegans with 43 samples.

Results

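The maturation of lin-41(xe11) worms was followed in 6 of the 43 whole-worm RNA libraries of a Caenorhabditis elegans time course with 4 strains. The 6 libraries are all those of the single mutant lin-41(xe11) from 28 to 38 h, and the 3 libraries of 34, 36 and 38 h were set against the 3 of 28, 30 and 32 h. The wild type N2 at the same 6 hours gave the course of comparison. In both strains, starved synchronised first-stage larvae were fed Escherichia coli NA22 and kept at 25 °C, so the hour is the time on food. lin-41(xe11) carries a point mutation in a let-7 complementary site of the lin-41 3′ UTR and no other labelled allele, and N2 carries none. Each strain has 1 library per hour, and the labels do not say whether the hours of a strain come from separate cultures. The 3 libraries of a window are therefore different hours, and the spread within a window includes the change with time inside it.

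In C. elegans the passage from larva to adult is timed by the heterochronic genes. The microRNA let-7 represses lin-41, whose TRIM-NHL type RNA-binding product holds back the transcription factor LIN-29 and its cofactor MAB-10 until the end of larval life. LIN-29 and MAB-10 drive the adult programme of the epidermis, in which the last molt ends and collagen genes of the adult cuticle are switched on. In the same hours the gonad makes sperm and then oocytes, and the intestine begins to make vitellogenins, the yolk proteins that oocytes take up.

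Library totals were 11192438 to 16104985 counts in lin-41(xe11) and 12586079 to 15476625 in N2. Levels are CPM, the count relative to the TMM-scaled library total, so each level is a share of the RNA of whole worms, and fewer cells of a type cannot be told apart from less RNA per cell. A change is the log2 difference of the later and the earlier window with its standard error after ±. Every adjusted p comes from edgeR's quasi-likelihood test and is corrected over 13361 genes after Benjamini and Hochberg, with n = 3 libraries per strain and window and 0.05 as the threshold. Of the 20 listed embryonic genes 3 were high enough to be tested, and their summed level stayed between 60.5 and 86.9 CPM in lin-41(xe11) and between 68.4 and 84.3 CPM in N2.

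lin-41 itself (chromosome I, 9334800 to 9342496 in the WBcel235 annotation) checks the strain. In lin-41(xe11) it stood at 95.7, 103 and 69.5 CPM at 28, 30 and 32 h and at 41.1, 62.6 and 87.2 CPM at 34, 36 and 38 h. In N2 it stood at 42.4, 38.1 and 28.7 CPM and then at 28.1, 37.1 and 75.8 CPM. The mutant was above N2 at each of the 6 hours, with the smallest gap at 38 h, when both strains had come back up. The change of lin-41 between the windows was -0.49 ± 0.38 in lin-41(xe11) (edgeR, adjusted p = 0.405) and 0.37 ± 0.38 in N2 (0.518). The strains were also compared on CPM + 0.5 over the 9900 genes with at least 10 CPM in a library. lin-41 and the transporter genes pgp-5 and pgp-6 were the 3 that were at least 2-fold apart at 28, 30 and 32 h and within 2-fold at each of the later hours.

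Between the windows, 253 of 13361 genes (1.89%) were called in lin-41(xe11), 150 higher and 103 lower in the later hours, which is 1.12% and 0.771% of the genes tested. At least a 2-fold change was seen in 118 of the rises and 26 of the falls. A linear slope over the 6 hours, which does not count steady change inside a window as spread, called 3282 genes (24.6%), 2325 higher (17.4%) and 957 lower (7.16%). With the 6 lin-41(xe11) libraries fitted alone, without N2 to share the estimate of spread, 0 genes were called (edgeR, 2988 at an unadjusted p under 0.05), so no window call named here holds in that fit. With both strains fitted, DESeq2 called 2246 genes and limma 1891. The window count also rests on single libraries: it was 0 when the lin-41(xe11) library of 28, 30, 36 or 38 h was left out, 2279 without that of 32 h and 896 without that of 34 h. It was also 0 without the N2 library of 30, 36 or 38 h, 3 without that of 34 h and 453 without that of 32 h, since both strains share the estimate of spread. The share of calls that were higher was 59.3%, against 70.8% with the slope and 74.5% with limma on the deposited log2 values. Each of the 33 genes named here as called between the windows kept its call in 2 to 5 of the 12 fits that left out 1 library, and in none did its estimate change sign.

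Genes of the fourth-stage and adult cuticle came up from low levels. col-19, the standard marker collagen of the adult epidermis (chromosome X, 421707 to 422691), stood at 0, 0 and 0.385 CPM at 28, 30 and 32 h and at 2.79, 77.9 and 312 CPM at 34, 36 and 38 h. The windows did not overlap and the last hour was the highest. Of all genes tested, 19.2% were higher and 14.2% lower in the later window of lin-41(xe11) without overlap. col-19 rose between the windows (adjusted p = 0.0498) and along the slope (adjusted p = 0.00053). No fold is given here for col-19, since with so few early reads it would depend on the prior count. The estimates given for col-88, perm-4 and vit-6, which also started from few reads, share that limit, as does the difference of col-19 from N2. col-38, a collagen gene of the same list, went from 18, 12.2 and 127 CPM to 838, 1291.7 and 704 CPM, and it peaked at 36 h. Its window change of 4.17 ± 1.47 missed the threshold (0.104) and its slope of 4.48 ± 1.41 per 6 h passed it (0.044). col-49 behaved alike with 7.8, 3.52 and 25.7 CPM and then 190, 336 and 251 CPM (slope 4.06 ± 1.21, adjusted p = 0.036).

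The strut collagens had a shorter course. bli-1, whose product builds the struts between the layers of the adult cuticle, stood at 0.817, 4.78 and 185 CPM and then at 435, 122 and 53.7 CPM. Its partner bli-2 stood at 7.95, 9.84 and 207 CPM and then at 513, 236 and 83.3 CPM. Both were highest at 34 h and lower again at 38 h than at 32 h, so the windows overlapped and neither was called by window or slope. col-63 stood at 0, 5.18 and 35.7 CPM and then at 246, 341 and 180 CPM, and its slope had adjusted p = 0.086. In all, 1 of the 6 tested genes of this list was called by window (16.7%, against 1.12% of all genes) and 3 by slope (50%, against 17.4%), all higher. The median window change of the list was 4.21 against -0.01 over all genes tested. col-7 was at 0 in all 12 libraries.

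**Figure D1:**
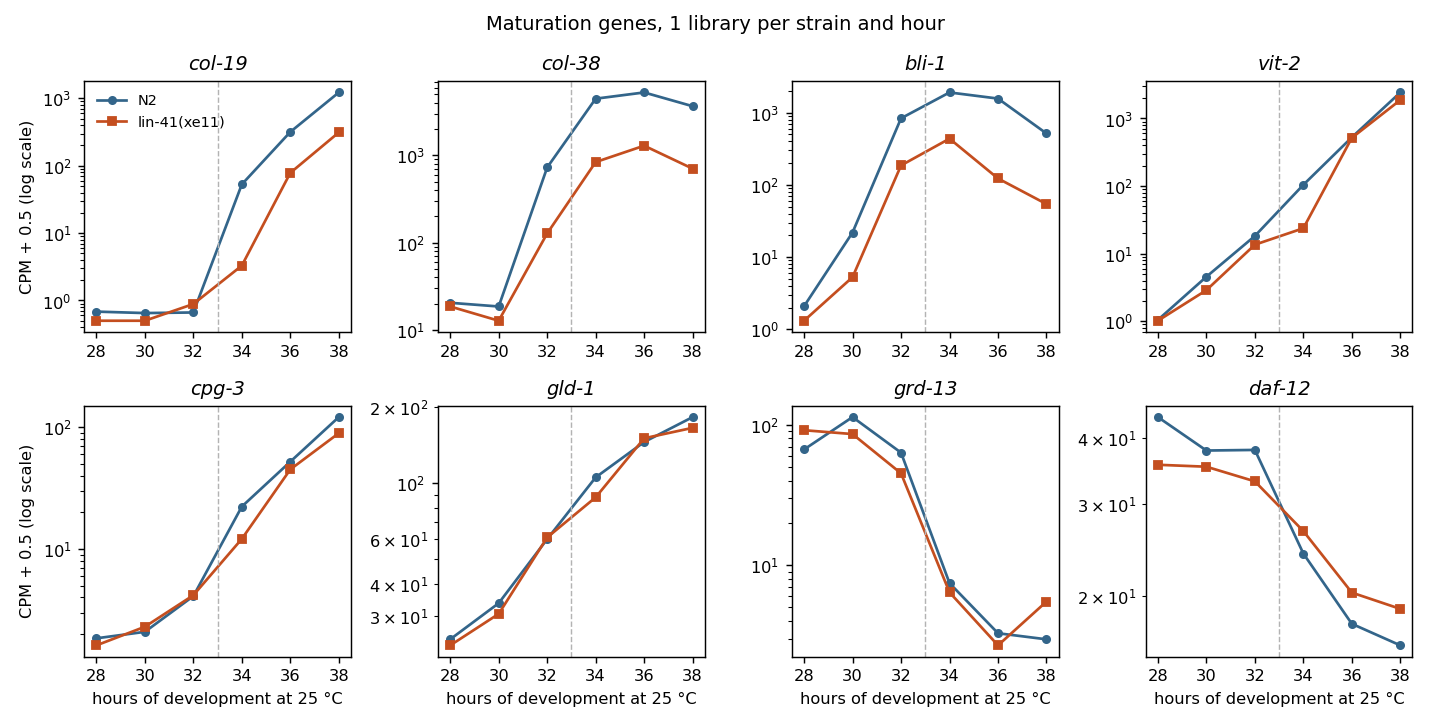
Levels (CPM + 0.5, log axis) of 8 genes against hours of development at 25 °C, with 1 library per point, N2 in blue circles and lin-41(xe11) in orange squares; the dashed line parts the windows. col-19 reached 312 CPM in lin-41(xe11) and 1224.3 CPM in N2 at 38 h, whereas the courses of cpg-3, gld-1 and grd-13 lay close together.

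In the wider collagen family 7 of 143 tested genes (4.9%, against 1.12% of all genes) were called higher between the windows and none lower. They include col-120, which went from 1.63, 0.93 and 1.06 CPM to 12.9, 52.6 and 59.1 CPM, a rise of 5.09 ± 0.61 (adjusted p = 0.0307). col-60 rose by 6.04 ± 0.75 (0.0307), from 0.891, 1.13 and 1.64 CPM to 19, 89.4 and 131 CPM. col-88 rose by 6.88 ± 1.11 (0.0353), from 0.743, 0.399 and 0.77 CPM to 6.72, 63 and 154 CPM. In each of the 3 the earliest late library, 34 h, was the lowest of its window. By slope 29 collagen genes rose (20.3%, against 17.4% of all genes) and 6 fell (4.2%, against 7.16%), shares near the background. Collagen genes resemble each other in sequence, and the treatment of reads that match several genes is unknown here.

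All 6 vitellogenin genes rose along the slope, against 17.4% of all genes, although none was called between the windows. vit-2 stood at 0.52, 2.39 and 13.1 CPM and then at 23.3, 517 and 1877.3 CPM, with a slope of 7.29 ± 0.43 per 6 h (adjusted p = 3e-05). vit-6 stood at 0.223, 0.532 and 1.54 CPM and then at 12.8, 650 and 2440.3 CPM (slope 9.70 ± 0.95, adjusted p = 0.00024). Both were highest at 38 h, and the earlier and later libraries did not overlap, as in 19.2% of all genes tested. vit-1 was the earliest, with 3.12, 9.64 and 56 CPM and then 50.9, 233 and 514 CPM (slope 4.25 ± 0.39, adjusted p = 0.00017). vit-3, vit-4 and vit-5, which are close copies, stood between 0 and 0.192 CPM up to 34 h and reached 5.17, 6.19 and 36.1 CPM at 38 h. rme-2, the yolk receptor of oocytes, rose from 12 CPM at 28 h through 30.2 CPM at 32 h and 149 CPM at 36 h to 278 CPM at 38 h (slope 2.83 ± 0.19, adjusted p = 5.3e-05).

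Oocyte and eggshell genes had the largest share of window rises among the lists. 5 of 28 rose (17.9%, against 1.12% of all genes), none fell, and 25 of 28 rose along the slope (89.3%, against 17.4%). Their median window change was 2.30. cpg-3, a chondroitin proteoglycan of the eggshell, stood at 1.11, 1.79 and 3.66 CPM and then at 11.6, 44.6 and 89.1 CPM, a rise of 4.49 ± 0.92 (adjusted p = 0.0489). perm-4, which is needed for the permeability barrier of the egg, rose by 6.45 ± 1.33 (0.0489), from 0.0743, 0.332 and 1.06 CPM to 6.8, 39.7 and 75.5 CPM. zif-1, the substrate adaptor of an E3 ligase of the early embryo, rose by 1.35 ± 0.25 (0.0407), from 8.69, 7.64 and 12.8 CPM to 19.9, 22.4 and 31.5 CPM. For these genes too the windows did not overlap, as for the 19.2% of all genes tested that rose without overlap.

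Germline genes moved less far, with a median window change of 0.64. Along the slope 24 of 29 rose (82.8%, against 17.4% of all genes), without a window call. gld-1, an RNA-binding regulator of meiosis, stood at 22.4, 30 and 60.6 CPM and then at 87.5, 150 and 165 CPM (slope 1.88 ± 0.15, adjusted p = 9.7e-05). mex-6, a zinc-finger gene of the oocyte-to-embryo transition, went from 4.83, 4.78 and 9.14 CPM to 15, 29.9 and 54 CPM (slope 2.22 ± 0.17, adjusted p = 8.7e-05). Sperm genes had 15 of 20 rising along the slope (75%, against the same 17.4%). Among them spe-15, a myosin gene of spermatids, stood at 12.1, 17.7 and 45.4 CPM and then at 82.6, 133 and 128 CPM. All 8 tested major sperm protein genes rose along the slope, but their summed level did not pass 86.5 CPM, and 22 of the 30 listed were too low to be tested. The major sperm protein genes are near-identical copies whose reads may have been split. From 36 to 38 h spe-15 and the sum of the major sperm protein genes did not rise further. The summed level of the 20 tested sperm genes still rose, from 1072.6 to 1167.1 CPM. Single genes differed, and spe-39, nspd-3 and msp-78 were highest at 38 h, as were cpg-3 and perm-4.

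Called genes were ranked by estimate where the windows did not overlap and a library of the strain had at least 10 CPM. The 8 largest rises among these were col-19 and 7 genes known only by sequence names, all near 0 before 34 h. Y57G11B.5 went from 0.0743, 0 and 0 CPM to 1.72, 20.6 and 68.7 CPM (adjusted p = 0.0479). F54F7.3 went from 0, 0 and 0.0962 CPM to 2.95, 31.8 and 52.9 CPM (0.0353). F53H4.2 was the earliest of the 7 to leave the floor, with 0, 0.133 and 0.192 CPM and then 9.26, 48 and 79.7 CPM (0.0334). D1086.11, C44B7.5, R03G8.6 and C35B1.4 likewise stood under 0.2 CPM in every earlier library and at 55, 71.6, 39.8 and 20.3 CPM at 38 h. In the cell cycle list 4 of 27 genes rose (14.8%, against 1.12% of all genes) and 1 fell (3.7%, against 0.771%). air-1, the Aurora A kinase of the spindle, rose by 0.90 ± 0.16 (adjusted p = 0.0377), and the kinetochore kinase gene bub-1 by 0.65 ± 0.12 (0.0402). cdk-4, the kinase gene of the G1 phase, fell by 1.00 ± 0.17 (0.0359), from 6.68, 8.31 and 6.06 CPM to 3.19, 3.61 and 3.69 CPM.

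Falls were smaller and fewer. The largest, ranked in the same way, were those of grd-13 and grd-10, neighbouring genes of the hedgehog-related groundhog family on chromosome IV. grd-13 stood at 91, 85.4 and 44.6 CPM and then at 5.9, 2.18 and 5 CPM, a fall of -4.08 ± 0.53 (adjusted p = 0.0307). grd-10 stood at 83.8 CPM at 28 h and 62.7 CPM at 32 h, the lowest of its earlier window, and then at 12.1, 2.71 and 9.77 CPM, a fall of -3.43 ± 0.59 (0.0353). They were the 2 of 67 tested hedgehog-related genes that were called (2.99%, against 0.771% of all genes that fell). The median of that list was 0.10. grd-10 was also the 1 of 16 tested seam cell genes that was called (6.25%, against the same 0.771%). ham-1, which acts in asymmetric neuroblast division, fell by 2.68 ± 0.45 (0.0353), from 14.7, 13 and 8.47 CPM to 2.95, 1.43 and 1.31 CPM.

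Among the 8 largest called falls in that ranking were also 2 germline regulators and 2 histone genes. fog-1, which directs germ cells to the sperm fate, stood at 37.9, 28.2 and 17 CPM and then at 7.21, 6.85 and 9.49 CPM, a fall of -1.82 ± 0.31 (adjusted p = 0.0353). snpc-1.3, a factor for piRNA transcription in the male germline, fell by 2.82 ± 0.55 (0.0434), from 10.7, 11.7 and 7.5 CPM to 2.46, 1.13 and 0.682 CPM. his-1 fell by 1.82 ± 0.36 (0.0465) and his-32 by 2.02 ± 0.41 (0.0485). They were the 2 of 21 tested histone genes that were called (9.52%, against 0.771% of all genes that fell). In N2 2 histone genes fell as well (9.52%, against 6.5%). These histone genes have near-identical copies, so single members are uncertain, and 49 of 70 listed histone genes were too low to be tested. Y39G8B.9 fell by 1.54 ± 0.31 (0.0489).

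Neuronal genes fell by smaller steps. 3 of 24 were called lower between the windows (12.5%, against 0.771% of all genes) and 16 along the slope (66.7%, against 7.16%). None rose, and the list median was -0.57. unc-25, which makes the transmitter GABA, stood at 43.7, 42.1 and 35.4 CPM and then at 25.7, 25.7 and 21.9 CPM, a fall of -0.73 ± 0.12 (adjusted p = 0.0353). mec-7, the tubulin gene of touch neurons, fell by 0.77 ± 0.15 (0.0485), and the neuronal homeobox gene unc-86 by 1.02 ± 0.21 (0.049). Among pharynx genes 1 of 14 fell (7.14%, against the same 0.771%), the pharyngeal myosin gene myo-2, by 0.82 ± 0.14 (0.0353). Among intestinal genes 1 of 17 fell (5.88%), the peptide transporter gene pept-1, by 0.63 ± 0.12 (0.046). In the stress list the catalase gene ctl-2 fell by 0.57 ± 0.12 (0.0498). Over the same hours the summed level of the germline list went from 2300.0 to 4424.5 CPM and that of the neuronal list from 1030.9 to 674 CPM. The part of the growing germline share in these falls was not tested.

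Of 23 tested heterochronic genes 1 was called between the windows (4.35%, against 0.771% of all genes that fell). It was alg-2, an Argonaute gene of the microRNA pathway, which fell by 0.55 ± 0.11 (adjusted p = 0.0457), from 51.8, 46.5 and 47.3 CPM to 35.1, 36.3 and 28 CPM. Along the slope 4 fell (17.4%) and 1 rose, against 7.16% of all genes that fell. In N2 9 of the 23 fell between the windows (39.1%, against 6.5% of all genes), among them daf-12, hbl-1 and lin-14. The paired difference, however, was called for 1 gene of the list, nhr-25. daf-12, the nuclear receptor that links steroid signals to stage, stood at 35.1, 34.8 and 32.6 CPM and then at 26.1, 19.8 and 18.4 CPM. Its later window was lower without overlap, as in 14.2% of all genes tested. The slope of daf-12, -0.64 ± 0.12, passed the test (0.0068) where its window change did not (0.0604). Of the 10 listed let-7 targets none was called by window in lin-41(xe11), and 5 fell in N2 (50%, against 6.5% of all genes). lin-29 stood at 26.7, 18.7 and 42.5 CPM and then at 48.3, 24.1 and 18.8 CPM, and mab-10 at 1.93, 5.98 and 14 CPM and then at 14.5, 4.37 and 3.86 CPM. Both were highest at 32 and 34 h, on either side of the boundary between the windows, so a window contrast does not see them. mab-3, a transcription factor gene of male development and another reported LIN-41 target, went from 3.12, 1.53 and 2.6 CPM to 2.05, 0.452 and 0.398 CPM (adjusted p = 0.234). dmd-3 did not pass the filter on low counts.

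Besides the germline, sperm, major sperm protein, vitellogenin, let-7 target, LIN-41 target and embryonic lists, those without a window call were molting (37 genes tested), cuticlins and apical matrix (43), epidermis (14), muscle (18), vulva (21), furrow collagens (6), other body-shape collagens (14), male development (8), ribosomal proteins (74) and yolk regulators (9). Many of them went up and down inside the 6 hours. The summed level of the molting list stood at 6623.2, 5256.8 and 12325.3 CPM and then at 14980.8, 6011.3 and 2994.6 CPM. Its highest libraries were 32 and 34 h, which fall in different windows.

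**Figure D2:**
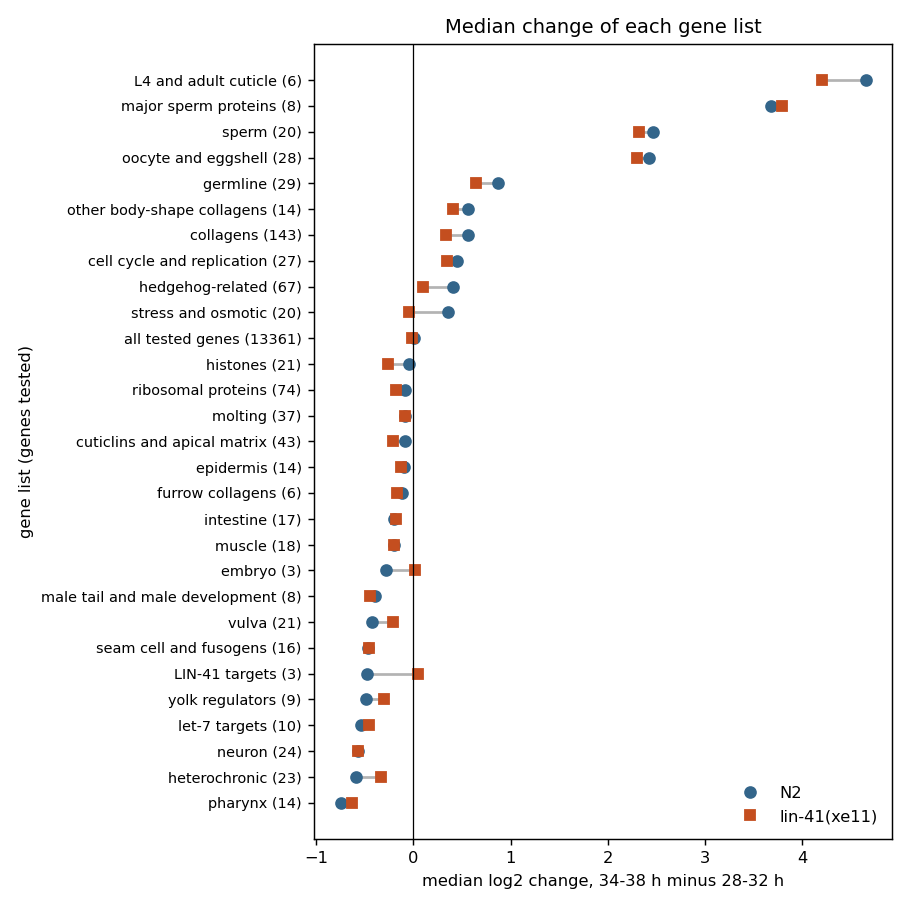
Median log2 change from 28-32 h to 34-38 h for each gene list (number of genes tested in brackets), N2 as blue circles and lin-41(xe11) as orange squares. Vitellogenins are left out, since vit-3 and vit-5 had no early reads in either strain; fourth-stage and adult cuticle genes had medians of 4.21 in lin-41(xe11) and 4.66 in N2, and neuron genes had the same median of -0.57 in both.

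Set beside N2, the direction of the changes was shared. N2 had 1848 calls (13.8%) over the same hours, 979 higher (7.33%) and 869 lower (6.5%). Of the 253 genes called in lin-41(xe11), 238 were also called in N2, all in the same direction, which is 94.1% of the lin-41(xe11) calls and 12.9% of the N2 calls. By slope the strains were closer in number, with 3282 calls in lin-41(xe11) and 3683 in N2 (27.6%), 2485 of them higher (18.6%) and 1198 lower (8.97%). Of these 2612 were called in both strains, all in the same direction, which is 79.6% of the lin-41(xe11) and 70.9% of the N2 calls. The N2 window count ranged from 19 to 2735 when 1 library was left out, with 19 to 407 calls without the N2 library of 28, 30, 36 or 38 h, so the gap between 253 and 1848 is not a count of genes that differ.

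Among the 623 genes that rose at least 2-fold in N2, 618 had a positive estimate in lin-41(xe11) and 464 a smaller one, and the median changes were 2.83 in N2 and 2.41 in lin-41(xe11). Among the 236 that fell at least 2-fold in N2, 234 had a negative estimate and 220 a smaller one, with medians of -1.34 and -0.9. Because these genes were picked for their change in N2, a smaller estimate in the other strain carries no weight by itself. The test of the difference between the changes called 0 genes by edgeR (190 at an unadjusted p under 0.05), 0 by limma and 6 by DESeq2. Libraries of the same hour deviated from their window means together in the strains. A fit with the hour as a block, planned as an alternative to the main test by windows, is therefore given beside it. This alternative fit called 10 genes (0.0748%), 6 with a higher (0.0449%) and 4 with a lower change (0.0299%) in lin-41(xe11). Without both libraries of an hour it called between 4 (30 h) and 80 (34 h) genes, 6 without 28 h and 19 without 32 h. Adding the libraries of 18 to 26 h to that fit, an alternative chosen after seeing the data, gave 21 calls (0.157%), 13 higher (0.0973%) and 8 lower (0.0599%).

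**Figure D3:**
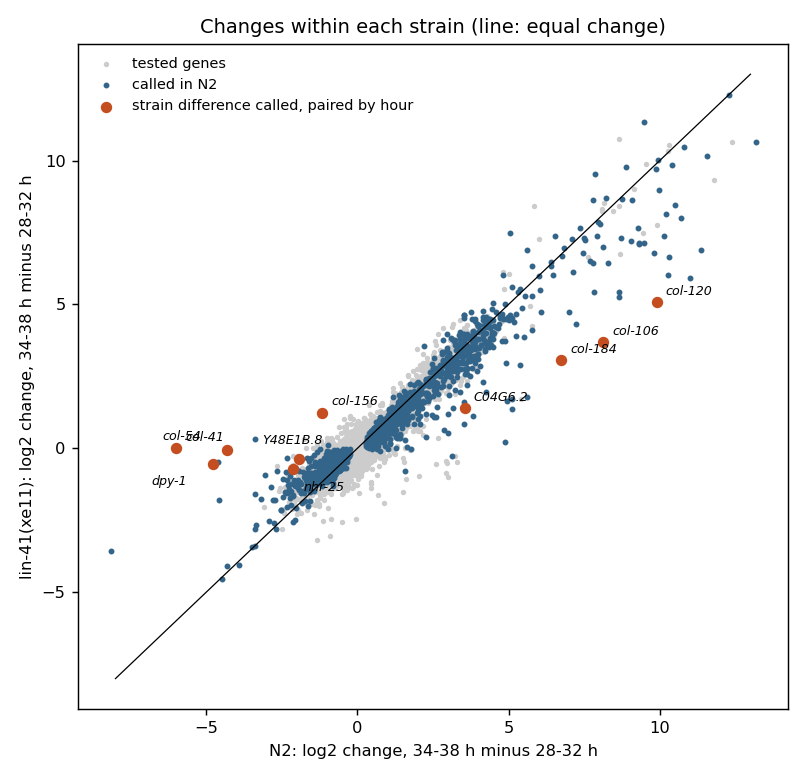
Window change in lin-41(xe11) against that in N2 (both log2) for 13361 tested genes, those called in N2 in blue and the 10 with a called strain difference in the fit paired by hour in orange; the line marks equal change. col-120 lay at 9.90 in N2 and 5.09 in lin-41(xe11), and col-41 at -6.0 and 0.02.

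Timing was described with the hour at which a gene passed the midpoint of its N2 change, on log2(CPM + 0.5). Of 621 timed N2 rises, 594 passed that level in lin-41(xe11) inside the 6 hours, 24 had not reached it by 38 h and 3 were past it by 28 h. Those 594 passed it a median of 0.37 h later than in N2 (quartiles -0.12 and 0.8 h), and 412 of them were later. Of the timed falls, 202 passed it inside the hours, 25 had not by 38 h and 8 were past it by 28 h, and the 202 had a median delay of 0.08 h (quartiles -0.4 and 0.83 h). With the midpoint of each strain's own change in place of that of N2, the median for falls was -0.49 h, so its direction depends on that choice. Libraries were 2 h apart, so these delays are interpolations with no error from replicates, and a lower final level also moves the crossing. Only the first crossing counts, so genes that fell and came up again have no delay. Such were col-54 (-0.2 h), dpy-1 (-0.4 h) and nhr-25 (-0.1 h), and the median for falls does not show them. Matched as a whole to the N2 course, the lin-41(xe11) libraries of 28, 30 and 32 h were closest to N2 at 28.5, 30.2 and 32.1 h and those of 34, 36 and 38 h to N2 at 33.4, 36.8 and 38.0 h, the last being the end of the N2 course. The 34 h library was thus the only one that matched an earlier hour, by 0.6 h.

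Median delays per list are given as descriptions, with no test between lists. Genes that had not passed the midpoint by 38 h count as timed but have no delay, so each median leaves them out. Over the 856 timed genes, which include 24 rises and 25 falls of that kind, the median was 0.29 h. The 32 timed collagen genes include col-184 and col-41, which had not passed their N2 midpoint by 38 h. The collagen genes with a delay passed it a median of 1.64 h later in lin-41(xe11). The median was 1.32 h for the 3 timed vitellogenins and 0.76 h for the 18 timed oocyte and eggshell genes. It was 0.33 h for the 8 timed germline genes, 0.04 h for the 12 hedgehog-related genes and 0.19 h for the 5 major sperm protein genes. Among genes called in both strains and changed at least 4-fold in N2, col-120 (33.2 h in N2 and 35.4 h in lin-41(xe11)), col-88 (33.2 and 35.2 h), R12E2.6 (33.3 and 35 h) and col-19 (33.7 and 35.4 h) had the latest rises relative to N2. Among falls chosen the same way the longest delay was 0.6 h, that of snpc-1.3. A call in both strains leaves out genes whose change was late or missing in lin-41(xe11). There col-106 passed its N2 midpoint 4.4 h later and hbl-1 2.3 h later, and col-184, col-41 and daf-9 had not passed it by 38 h. oac-29 passed it 6.5 h later, after coming up from 25.6 CPM at 32 h to 87.2 CPM at 34 h.

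The vitellogenins stood differently to N2. vit-2 was at 22.4% of its N2 level at 34 h, 98.2% at 36 h and 77.3% at 38 h. vit-6 was at 15.8%, 70.7% and 55.1%, and vit-1, at 78.3%, 149% and 94.9%, was above N2 at 36 h. vit-5 was at 0, 6.48 and 36.1 CPM against 0.337, 18.8 and 125 CPM in N2, and vit-3 and vit-4 were likewise below N2 at 36 and 38 h. For eggshell genes both strains ended near each other, with cpg-3 at 89.1 CPM in lin-41(xe11) and 121 CPM in N2 at 38 h, and perm-4 at 75.5 and 97.8 CPM. The difference of the changes was not called for any of these genes, by windows or paired by hour.

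Levels of the adult cuticle genes were set beside N2 hour by hour. col-19 reached 52.4, 317 and 1224.3 CPM in N2 at 34, 36 and 38 h, and lin-41(xe11) stood at 5.31%, 24.6% and 25.5% of that. col-38 stood at 18.8%, 24.5% and 19.2% of N2 and col-49 at 16.3%, 22.5% and 23.2%. bli-1 stood at 22.9%, 7.82% and 10.5%. Most of the list was below N2 already at 32 h, with col-38 at 17.5%, bli-1 at 22.2%, col-49 at 28.9%, col-63 at 46.7% and bli-2 at 53.3%. At that hour col-19 was still near 0, with 0.385 CPM in lin-41(xe11) and 0.163 CPM in N2. In none of the 6 tested genes of this list was the difference of the changes called, by windows or paired by hour. For bli-1 the paired difference was -0.97 ± 0.41 and for col-19 -1.85 ± 2.32.

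By the test of the difference paired by hour, the change was smaller in lin-41(xe11) than in N2 for col-106, col-184, col-120 and C04G6.2. The main test by windows called the difference for no gene. col-106 (chromosome IV, 1459896 to 1460786) stood in lin-41(xe11) at 3.34, 2.92 and 1.35 CPM and then at 6.23, 29.1 and 63.3 CPM. In N2 it stood at 2.56, 2.55 and 1.8 CPM and then at 165, 524 and 1279.7 CPM. The strains were alike to 32 h, and from 34 h lin-41(xe11) was at 3.77%, 5.55% and 4.95% of N2. The difference of the changes was -4.52 ± 0.24 (edgeR, adjusted p = 0.000221). col-184 (chromosome X, 13469455 to 13470409) went from 1.78, 1.66 and 1.92 CPM to 2.87, 10.1 and 31.6 CPM in lin-41(xe11), and from 2.01, 2.1 and 2.69 CPM to 68.7, 213 and 453 CPM in N2, a difference of -3.87 ± 0.28 (0.00113).

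col-120 (chromosome IV, 9260610 to 9261787) reached 378, 793 and 898 CPM in N2 at 34, 36 and 38 h, and lin-41(xe11) stood at 3.43%, 6.64% and 6.58% of that, a difference of -4.97 ± 0.47 (adjusted p = 0.00497). It is called within lin-41(xe11) as well, so its rise was smaller there, not absent. C04G6.2 stood at 33, 13.9 and 5.58 CPM and then at 39.8, 68.2 and 30.4 CPM in lin-41(xe11), against 31.6, 15.2 and 3.92 CPM and then 192, 225 and 180 CPM in N2 (-2.26 ± 0.23, adjusted p = 0.00896). The calls of col-106 and col-184 held when any hour was left out, whereas those of col-120 (-4.76 and -5.18) and C04G6.2 (-2.28 and -2.39) were lost without 28 or 30 h. Without the libraries of 34 h the differences of these 4 genes were -4.41, -3.76, -4.69 and -2.21, and all were called. The part of later timing in the smaller changes was not tested.

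**Figure D4:**
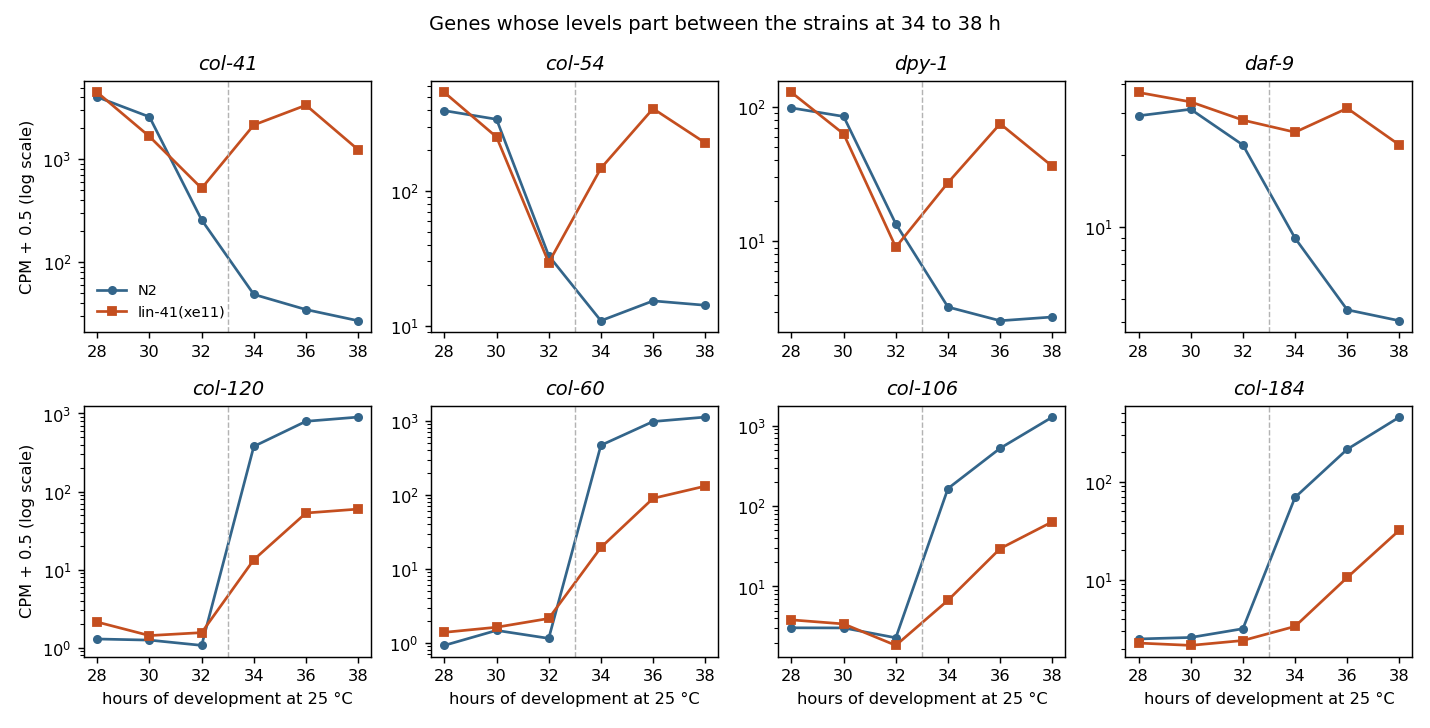
Levels (CPM + 0.5, log axis) of 8 genes against hours of development at 25 °C, 1 library per point, N2 in blue circles and lin-41(xe11) in orange squares. In lin-41(xe11), col-41, col-54 and dpy-1 came up again after 32 h while N2 went on down, and col-120, col-60, col-106 and col-184 rose to levels below those of N2.

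The second pattern ran the other way. Genes that stood low in N2 after 32 h came up again in lin-41(xe11). col-41, a collagen gene on chromosome X (15175032 to 15176481), stood at 4477.9, 1666.3 and 521 CPM and then at 2158.7, 3365.4 and 1238 CPM in lin-41(xe11), against 4036.9, 2588.2 and 256 CPM and then 47.7, 33.8 and 26.2 CPM in N2. Its change was 0.02 ± 0.90 in lin-41(xe11) and -6.0 ± 1.12 in N2, and the paired difference was 5.72 ± 0.45 (edgeR, adjusted p = 0.00164). col-54 (chromosome I, 5842709 to 5844050) stood at 538, 251 and 28.9 CPM and then at 147, 408 and 227 CPM, against 394, 340 and 32.6 CPM and then 10.4, 14.8 and 13.7 CPM in N2 (4.27 ± 0.29, adjusted p = 0.000928). Both calls held without any 1 hour.

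dpy-1, whose mutants are short and fat (chromosome III, 2034988 to 2048007), followed the same course. It stood at 127, 62.3 and 8.56 CPM and then at 26.8, 74.2 and 35.6 CPM in lin-41(xe11), against 97.4, 84.1 and 13 CPM and then 2.76, 2.08 and 2.25 CPM in N2. The difference was 4.29 ± 0.41 (adjusted p = 0.00497), and the call was lost without the 30 h libraries (4.13, adjusted p = 0.0747). col-156 came back in both strains but further in the mutant, with 470, 1606.3 and 1036.9 CPM at 34, 36 and 38 h against 81.1, 206 and 258 CPM in N2 (2.45 ± 0.30, adjusted p = 0.0252). The call of col-156 was lost without 30, 32 or 36 h (2.2, 2.44 and 2.22).

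The earlier hours of the strains place this wave. Scaled together over 18 to 38 h, col-54 in lin-41(xe11) had peaks of 371 CPM at 22 h, 552 CPM at 28 h and 421 CPM at 36 h, with troughs of 42.8 CPM at 24 h and 27.8 CPM at 32 h. In N2 it had peaks of 289 CPM at 22 h and 410 CPM at 28 h, and it was at 15.2 CPM at 36 h. dpy-1 peaked at 22 h, at 28 h with 130 CPM and at 36 h with 76.6 CPM in lin-41(xe11). In N2 it peaked at 22 and 28 h, with 93 and 101 CPM, and stood at 2.14 CPM at 36 h. col-41 peaked at 3851.9 CPM at 20 h, 4593.1 CPM at 28 h and 3474 CPM at 36 h in lin-41(xe11). These hours rest on 1 library each.

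The genes with a higher change in lin-41(xe11) also held nhr-25 and Y48E1B.8. nhr-25, the nuclear receptor needed for molting and one of the listed let-7 targets, stood at 41.1, 26.8 and 10.9 CPM and then at 17.8, 18 and 11.8 CPM in lin-41(xe11), against 38.8, 31.6 and 10.4 CPM and then 6.2, 6.31 and 5.81 CPM in N2. The paired difference was 1.39 ± 0.19 (adjusted p = 0.0488), and the call was lost without 28, 30, 32 or 36 h (1.46, 1.28, 1.43 and 1.31). daf-9, the cytochrome P450 that makes the steroid ligand of DAF-12, fell in N2 by 2.34 ± 0.32 (0.0087), from 28.8, 30.7 and 21.6 CPM to 8.49, 4 and 3.55 CPM. In lin-41(xe11) daf-9 stood at 36.2, 33 and 27.6 CPM and then at 24.5, 31 and 21.6 CPM, a change of -0.33 ± 0.30 (0.498). Its difference of 2.04 ± 0.31 missed the threshold over 28 to 38 h (0.07) and passed it with the earlier hours added (2.04 ± 0.27, adjusted p = 0.0101). Y48E1B.8 stood at 359, 201 and 99.9 CPM from 34 h in lin-41(xe11) and at 58.2 and 19.6 CPM at 36 and 38 h in N2, after 337 and 217 CPM at 32 h (1.69 ± 0.20, 0.0234). That call was lost without 28, 30 or 36 h (1.60, 1.61 and 1.78).

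Sets of genes were then collected by the hour at which the strains part, with no test, by a rule chosen after the values were seen: at least 10 CPM in a library, within 2-fold at 28, 30 and 32 h, and at least 2-fold apart in the same direction at 34, 36 and 38 h. Of 9900 genes 32 were lower in lin-41(xe11), 18 of them collagens, and 7 were higher, 2 of them collagens. For comparison, the collagen list held 143 of all 13361 tested genes. The collagens among the 9900 genes were not counted, so the exact background share is not known. Besides the genes already given, the lower set held col-122 at 2.38, 28.7 and 137 CPM from 34 h against 164, 502 and 1051.4 CPM in N2, and col-181 at 2.21, 21 and 49.4 CPM against 201, 652 and 1751.8 CPM. It also held the lysozyme gene lys-7, the hedgehog-related genes grd-2, wrt-4 and wrt-8, the cuticlin-like gene cutl-15 and the vitellogenin gene vit-4. lys-7 stood at 27.7, 30.4 and 23.3 CPM from 34 h in lin-41(xe11) and at 78.4, 65.4 and 55.8 CPM in N2, with a paired difference of -0.94 ± 0.15 that was not called (0.0733). The higher set was col-54, dpy-1, col-156, daf-9, srap-1, Y48E1B.8 and T20D4.10.

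**Figure D5:**
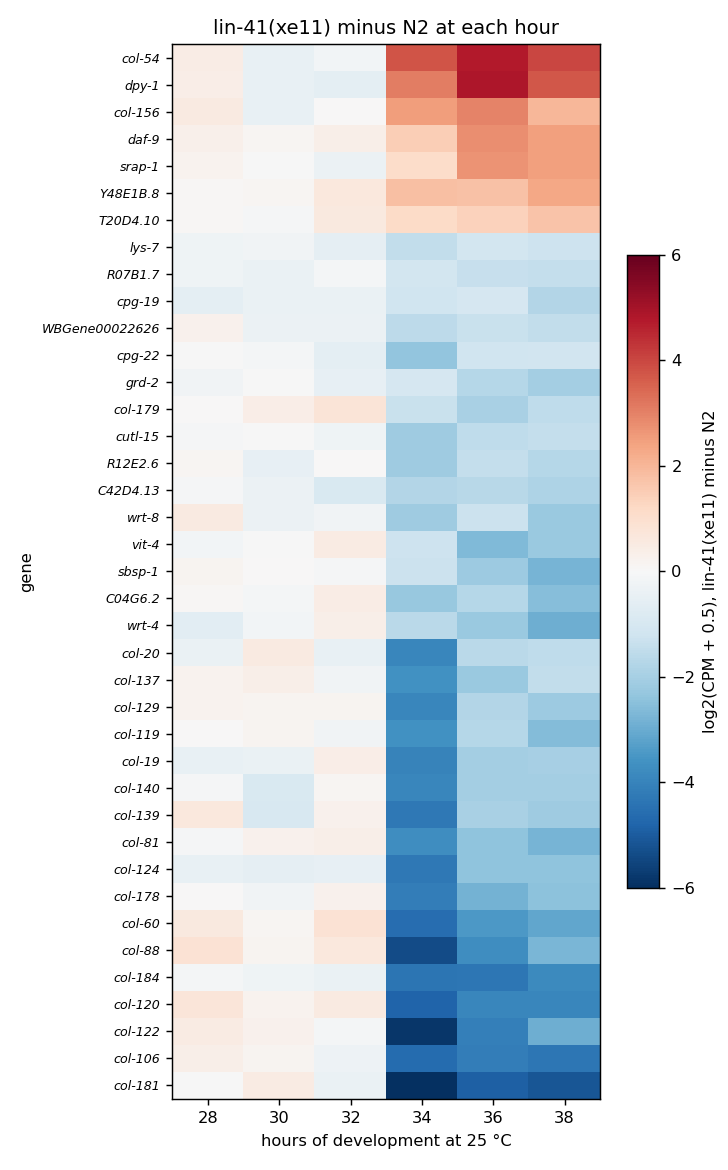
Difference of log2(CPM + 0.5), lin-41(xe11) minus N2, for the 39 genes collected by that rule (rows) at each of 6 hours (columns), red where lin-41(xe11) was higher and blue where it was lower. The 28, 30 and 32 h columns are pale by the rule, and of the 18 collagens below N2 all but col-179 were furthest below it at 34 h, as col-19 was at 5.31% of N2.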

How the data were processed

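Per the labels, total RNA of whole worms (Tri-Reagent) went through ribosomal depletion by Ribo-Zero and then ScriptSeq v2 library preparation. The authors deposited 1 count per gene and library for 20182 genes; mapping, strand handling, annotation and build are not given in the sources used here. They also deposited log2 values, which match the log2 of counts scaled to 12.02 M plus a pseudocount of 8 and served only for limma. Strain and hour came from the labels, symbols and positions from tables of the WBcel235 annotation by gene ID.

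TMM scaling and the fit of the 12 libraries used edgeR 4.0.16 under R 4.3.3 (4 group means, 8 residual degrees of freedom). Genes had to average 1 CPM or more, which left 13361, and the quasi-likelihood test was adjusted by Benjamini-Hochberg. In the window fit the spread between libraries of a strain includes the change between hours, and the rest may be technical. With the hour as a block, it is the spread of the strain difference between the hours of a window. The p-values measure only these spreads. No pair of the 12 libraries was a duplicate (smallest chi-square per degree of freedom 9.017 over 66 pairs). Slopes on the hour, DESeq2 1.42.0, limma 3.58.1, total-count scaling, no filter, the strain alone and leaving out each library were alternatives. The hour pairs the strains: deviations from window means correlated across genes with r = 0.89, 0.62, 0.92, 0.79, 0.41 and 0.83 at the 6 hours, so the fit with hour as a block is given beside the window test. Midpoints used a pseudocount of 0.5 CPM. Scripts were checked on simulated data. Some listed names, 14 in all, had no ID in the table.

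Named genes were all lin-41, let-7 target, LIN-41 target, cuticle and vitellogenin list members, and the 8 largest called rises and falls without overlap and with at least 10 CPM in a library of the strain. Up to 3 members of each other list by smallest p and the 4 largest delays in each direction were also named. Other genes called in the paired fits or collected by the 2-fold rule were named after their values were seen. The members and the 29 lists were chosen with earlier results of these data known.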

Additional observations from a re-analysis of the deposited data

Results flagged for a closer look

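The change from 28-32 h to 34-38 h was called different between lin-41(xe11) and N2 for 23 genes in either fit paired by hour. Both used edgeR's quasi-likelihood test with Benjamini-Hochberg adjustment. The fit of 28 to 38 h called 10 genes (0.0748%). That of 18 to 38 h, chosen after seeing the data, called 21 (0.157%). Without the hour as a block edgeR called the difference for 0 genes, by windows and by slope. The genes called over 28 to 38 h were col-106 (-4.52), col-54 (4.27), col-184 (-3.87), col-41 (5.72), dpy-1 (4.29), col-120 (-4.97), C04G6.2 (-2.26), Y48E1B.8 (1.69), col-156 (2.45) and nhr-25 (1.39). Each value is the log2 change in lin-41(xe11) minus that in N2.

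With the libraries of 18 to 26 h added to the fit, 13 further genes passed. The lower ones were cutl-15 (-1.61), col-60 (-4.48), sbsp-1 (-2.31), the alpha-mannosidase gene aman-1 (-0.67) and C45B2.1 (-3.48). Higher were T19B10.5 (1.32), daf-9 (2.04), oac-29 (3.67), T20D4.10 (1.27), the cytochrome P450 gene cyp-33C8 (0.75), srap-1 (2.14), C11H1.9 (0.7) and the GTPase-activating protein gene gap-1 (0.77). C45B2.1 stood at 0.819, 1.81 and 6.02 CPM at 34, 36 and 38 h in lin-41(xe11) and at 1.68, 20.3 and 101 CPM in N2. sbsp-1 stood at 4.59, 3.92 and 4.77 CPM against 11.8, 19.8 and 35.5 CPM. oac-29 stood at 87.2, 41.6 and 12.3 CPM against 5.32, 2.31 and 1.16 CPM, after 25.6 against 6.45 CPM at 32 h, so its strains had parted before 34 h. In that fit C04G6.2 and col-156 had an adjusted p of 0.0534 each and were not called.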

How the results depend on the processing

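In lin-41(xe11) the count of called genes was 253, against 121 with no filter on low counts, 0 with the strain's libraries alone (2988 genes at an unadjusted p under 0.05), 3282 by slope, 1891 by limma and 2246 by DESeq2, and it ranged from 0 to 2279 when a library was left out. In N2 it was 1848, against 3683 by slope, 3163 by limma and 3388 by DESeq2, and 19 to 2735 when a library was left out. The difference of the changes had 0 calls by windows and also whenever 1 library was left out (from 0 to 0), 10 with the replicate block by hour, 21 with that block over 18 to 38 h, 6 by DESeq2 (which gave no adjusted p for 10626 genes), and 4 to 80 with the block when an hour was left out (11 without 38 h). The median delay of falls was 0.08 h and -0.49 h with the midpoint of each strain's own change, while that of rises was 0.37 h and 0.34 h. Of 594 alternative values for the 33 named genes called in lin-41(xe11), 324 lost the call and 0 changed sign, and of 257 for the 10 genes of the paired fit, 201 lost it and 0 changed sign. Where a call was lost in a smaller set of libraries the cause was not tested. With 1 library per hour, no single hour has an error of its own.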

Other observations

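Genes of the annular furrow collagens and of molting were followed because they cycle with each molt. In lin-41(xe11) the summed level of the 6 furrow collagens stood at 2178.9 CPM at 32 h, 2368.9 CPM at 34 h, 371 CPM at 36 h and 124 CPM at 38 h. In N2 it stood at 1482.6, 1652, 770 and 194 CPM. The mutant was above N2 at 32 and 34 h and below it at 36 and 38 h, a difference that was not called for any member. The cuticlin and apical matrix list had the same order, with 7612.3, 6661.2, 2044.4 and 918 CPM from 32 to 38 h in lin-41(xe11) and 6116.4, 5376.7, 2920 and 1178.3 CPM in N2. The summed level of the whole collagen family stood at 38698.7, 55374 and 39089.5 CPM at 34, 36 and 38 h in lin-41(xe11) and at 55269.8, 71973.7 and 71042.7 CPM in N2, and at 28 h it was 51363.1 against 43815.4 CPM.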
